A study of Laccaria bicolor with 18 samples.

Results

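Among the 23130 gene models of *Laccaria bicolor* with deposited values, 69 had a late stipe level far below that of every other group. They were chosen from the RPKM values (read counts scaled by transcript length and by library size). The mean of the 3 late stipe libraries was at most 1/5 of the mean of each of the other 5 groups, and all of those 5 means were at least 10 RPKM. Of the 7626 gene models with 5 such means, the 69 members made up 0.905%. With the same rule applied to the other groups in turn, none was found for early caps, medium caps, early stipes or medium stipes. For late caps 1 was found, gene model 448570 with a polyketide cyclase SnoaL-like domain, at 8.34 ± 1.09 RPKM in late caps and 53.7 ± 8.48 RPKM in late stipes (mean ± SD, n = 3).

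*L. bicolor* is an ectomycorrhizal basidiomycete, and its basidiocarp consists of a cap, which carries the spore-bearing gills, on a stipe that lifts it. All 18 libraries came from strain S238N. The basidiocarps grew in a nursery under inoculated Douglas fir, and each of 3 stages (early, medium and late) was separated into cap and stipe. Each of the 6 groups had 3 replicates, called biological in the labels. A figure legend of the paper counts fewer biological replicates of the basidiocarp stages than the 18 libraries used here. No genotype or treatment was varied, and each group is a whole tissue at one harvest stage, so that fewer cells of one type and less RNA per cell cannot be told apart. Polyadenylated RNA was sequenced, and the libraries held between 38976106 and 90888294 counted reads. The nearest library by correlation was of the same group for 16 of 18 libraries. The exceptions were medium cap 3 and medium stipe 3, which lay nearest to early cap 2 and early stipe 2. The tissue labels could not be checked with a defining stipe marker, since 3 gene models named eln3 or eln3-like, after a stipe elongation gene of *Coprinopsis cinerea*, differed in direction. The one named eln3 had 119 ± 12.2 RPKM in early caps, 61.6 ± 21.3 RPKM in early stipes and 13.6 ± 2.89 RPKM in late stipes. Of the 2 eln3-like gene models, one had lower means in stipes than in caps at each stage, and the other had higher means in stipes at each stage (at the late stage 231 to 388 RPKM in stipes against 114 to 160.1 RPKM in caps).

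Ribosomal proteins form, with ribosomal RNA, the machinery that translates mRNA, and eukaryotic cells usually make them in matched amounts. Small secreted proteins (SSPs) are short proteins exported from fungal hyphae, among them hydrophobins, which coat aerial hyphae, and proteins of the host interface. Histones and ribonucleotide reductase are needed when DNA is replicated. Ribosomal and small secreted proteins make up a large part of the members with an annotation, and histones and ribonucleotide reductase a small part.

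An annotation was at hand for 48 of the 69 members. By these annotations, 18 members were ribosomal proteins, 15 were small secreted or cell surface proteins, 6 belonged to chromatin, DNA and RNA, and 9 were metabolic and other enzymes, while 21 had no annotation. Annotations came from tables of which a part was at hand, so these shares do not describe the genome. The late stipe mean was between 0.964% and 19.97% of the lowest other mean, with a median of 15.8%. The gene models were not silent: 50 of the 69 still had a late stipe mean of at least 10 RPKM, and 2 were under 1 RPKM. Together the 69 took 0.112% to 0.221% of the reads of a late stipe library and 1.01% to 10.4% of the reads of the 15 other libraries. The lowest share among those 15 was that of medium stipe 3.

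**Figure D1:**
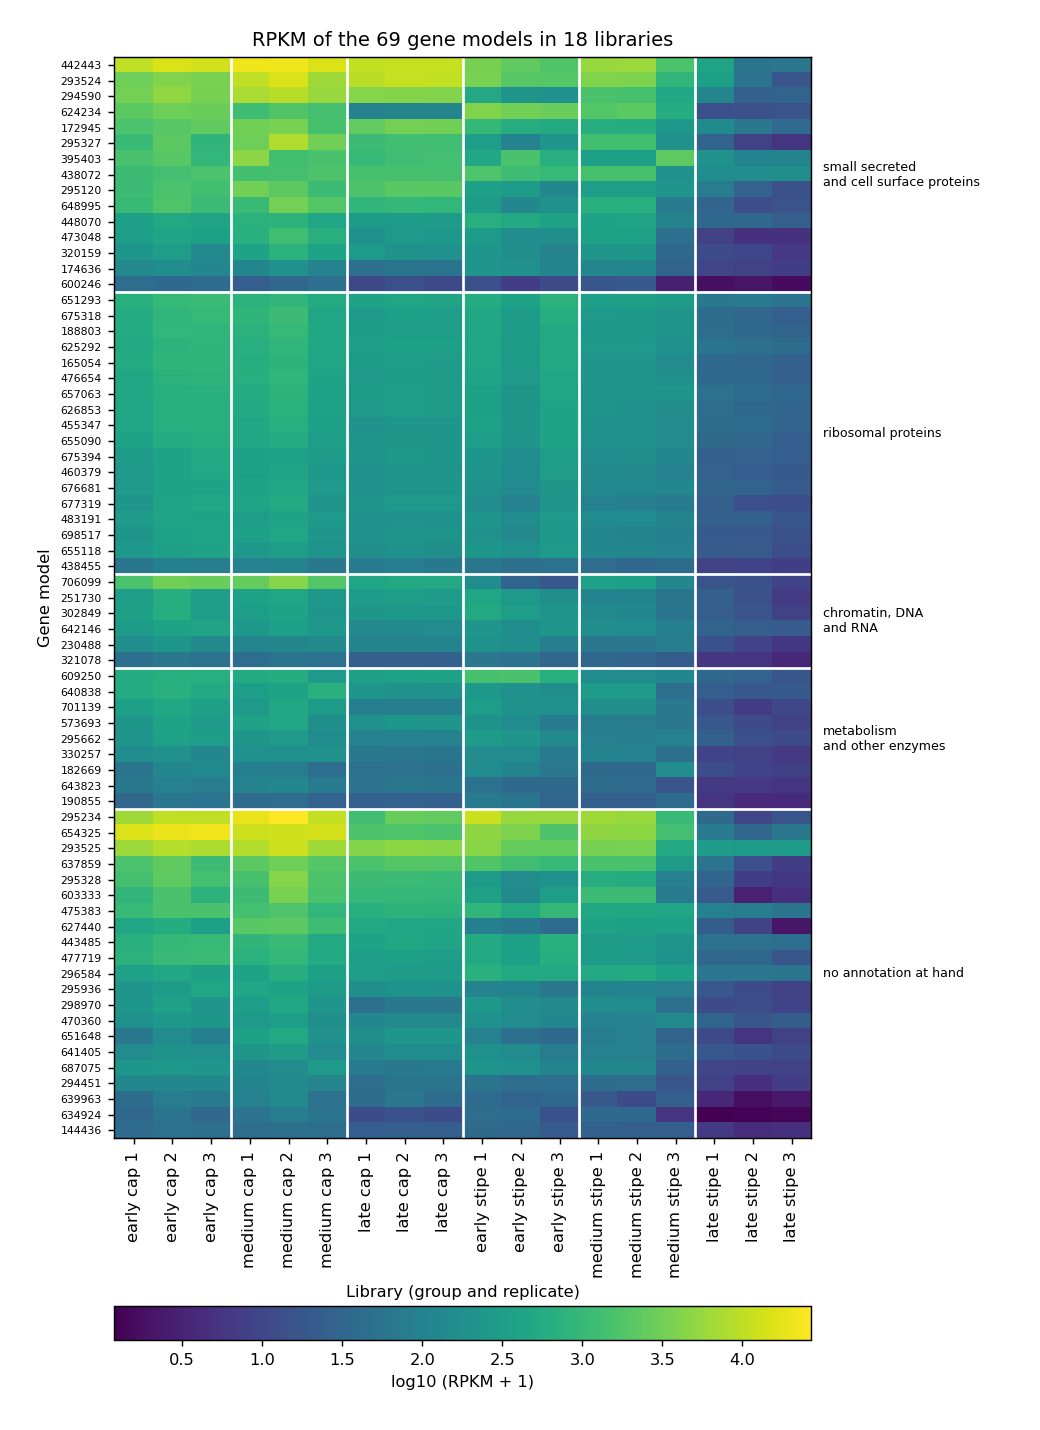
Heatmap of log10 (RPKM + 1) for the 69 gene models (rows, grouped by annotation and ordered by mean level) in the 18 libraries (columns, grouped by tissue and stage). The 3 late stipe columns at the right are the darkest in every row, and medium stipe 3 is darker than medium stipes 1 and 2 in 60 of the 69 rows.

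Because the rule used these values, the low level in late stipes is a description and was not tested. Every late stipe library lay below every other library in all 69 members. The 3 late stipe libraries were not equally low. Late stipe 1 was the highest of the 3 in 58 members, late stipe 2 in 8 and late stipe 3 in 3. In 40 of the 69 members, each of the 3 libraries by itself was at most 1/5 of the lowest other mean. When the choice was made without late stipe 1, it found 91 gene models, and late stipe 1 itself was at most 1/5 of their lowest other mean in 41 of them. Without late stipe 2, 60 of 71 were found again in that library, and without late stipe 3, 52 of 53. In the held-out late stipe 1, 90 of the 91 were still below the lowest other mean, with a median of 21.1% of it.

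**Figure D2:**
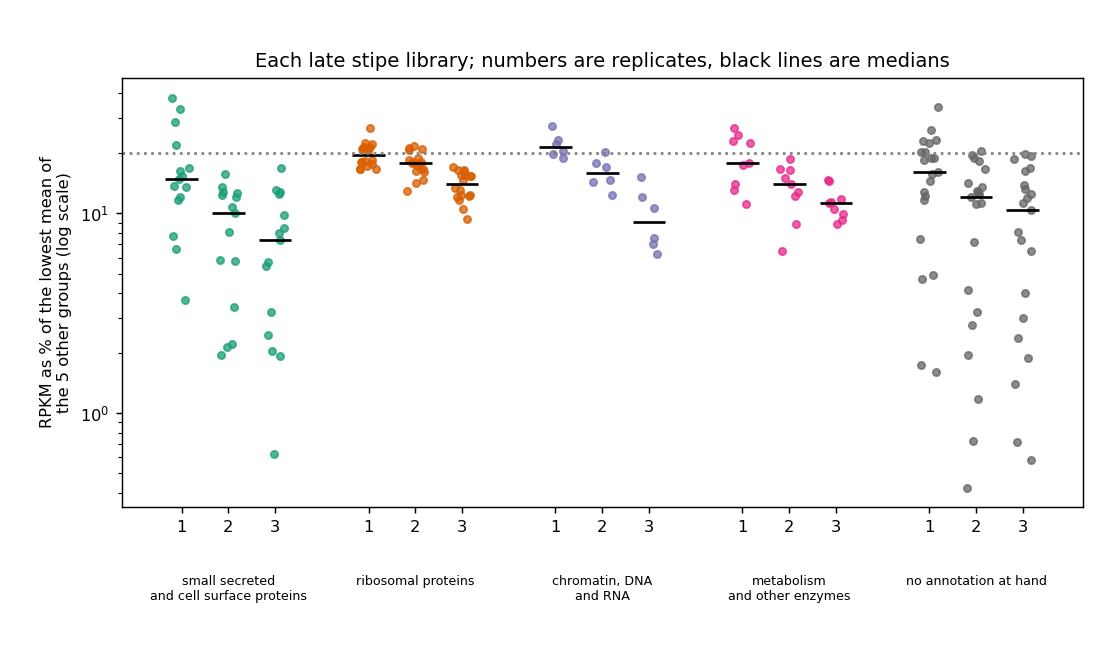
RPKM of each member in late stipe replicates 1, 2 and 3 as a percent of the lowest mean of the 5 other groups (log scale, points are gene models, black lines are medians, the dotted line is 20%). The ribosomal proteins lie close together in all 3 libraries, whereas small secreted and cell surface proteins and gene models without annotation spread over more than a decade.

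The position of the bound was arbitrary for several gene models. Just inside it were 470360 at 19.97%, 296584 at 19.8% and 455347, a ribosomal protein L24e-related gene model, at 19.7% of the lowest other mean. Just outside it were 150531, ribosomal protein L38e, at 20.4%, 469843, ribosomal protein L13e, at 20.5%, and 670672, a C-3 sterol dehydrogenase, at 20.6%. At the floor of 10 RPKM, the lowest other mean was 10.1 RPKM for 600246, 12.1 RPKM for 634924 and 17.96 RPKM for 639963 inside it. Outside it, it was 9.15 RPKM for 469904, with an SRA-YDG domain, 8.48 RPKM for 546684 and 7.40 RPKM for 679084.

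The 18 ribosomal proteins were the most uniform members. They were S25 (651293), L37ae (675318), L29/L36 (188803), S17/S11 (625292), S26e (165054), L37e (476654), L36e (657063), L44e (626853), L24e-related (455347), L34e (655090), L29e (675394), L14 (460379), S24e (676681), S12e (677319), S19e (483191), L27e (655118) and, annotated as structural constituents of the ribosome without a name, 698517 and 438455. Proteins of the small and of the large subunit were thus both present. Because reads with several hits were kept in mapping, ribosomal proteins and histones with near-identical copies can share reads, and their single values are uncertain to that extent.

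Gene model 675318, ribosomal protein L37ae of the large subunit, had the lowest late stipe share among them, 12.98% of the lowest other mean. It had 571, 881 and 974 RPKM in early caps 1 to 3, 832, 1138 and 441 RPKM in medium caps, and 274, 336 and 317 RPKM in late caps. In stipes it had 486, 295 and 617 RPKM at the early stage, 263, 247 and 210.1 RPKM at the medium stage, and 39.9, 31.1 and 22.5 RPKM at the late stage. Late stipes thus lay well apart from all other libraries, and medium stipes were the next lowest. L27e (655118), also of the large subunit, followed the same order at a lower level, with 225 ± 41.2 RPKM in early, 118 ± 16.0 RPKM in medium and 17.6 ± 4.54 RPKM in late stipes. The lowest of the 5 other means was that of medium stipes in all 18, and the highest was early caps in 15 and medium caps in 3. The late stipe libraries of a ribosomal member differed from each other by 1.17-fold to 2.03-fold, with a median of 1.44-fold. The 9 enzymes were close to this, with 1.22-fold to 2.31-fold and a median of 1.71-fold. Among the small secreted and cell surface proteins the difference reached 21.7-fold, with a median of 2.08-fold.

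Most other gene models with a ribosomal annotation were also lowest in late stipes. Of 88 gene models with such an annotation and all 5 other means of at least 10 RPKM, 18 were members, and the median late stipe mean was 29.1% of the lowest other mean. Over all 7626 gene models this median was 122%. The late stipe mean was below the lowest other mean in 85 of the 88 and below 50% of it in 77. For the 70 that were not members the median was 31.4%, and 59 of them were below 50%. In median RPKM over the 88, the groups ranked early cap (366), medium cap (330), late cap (218.0), early stipe (217.6), medium stipe (138) and late stipe (34.9). The 3 that were not below were 645304, which also carries a sugar transporter annotation, 313680, with a ribosomal protein L9/RNase H1 N-terminal domain, and 653480. They were at 985%, 167% and 105% of the lowest other mean and were named after their values were seen.

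**Figure D3:**
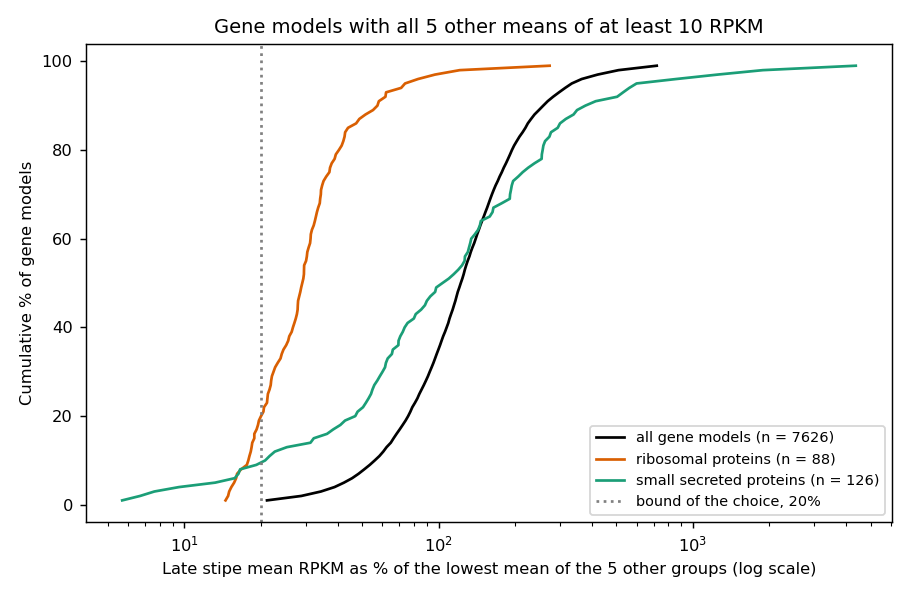
Cumulative percent of gene models (y axis) against the late stipe mean RPKM as a percent of the lowest of the 5 other means (x axis, log scale), for all 7626 gene models with these means at or above 10 RPKM, 88 with a ribosomal annotation and 126 small secreted proteins. The ribosomal curve has its median at 29.1%, left of the curve of all gene models with a median of 122%, and the dotted line marks the bound of 20%.

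The 15 small secreted and cell surface proteins included the most abundant member. This was gene model 442443, an SSP without a known domain, which had 10386, 15349.5 and 13504 RPKM in early caps, 20509, 21472 and 15873 RPKM in medium caps, and 10564, 11285 and 10921 RPKM in late caps. Its stipe values were 3423, 2322 and 1761 RPKM at the early stage, 5815, 6012 and 1567 RPKM at the medium stage, and 407, 55.4 and 61.4 RPKM at the late stage. Its caps were thus above all stipes, and late stipe 1 stood apart from late stipes 2 and 3. The SSP 293524 had the same split, with 337, 53.1 and 15.5 RPKM in late stipes against 3520.1, 1993 and 1929 RPKM in early stipes. The SSP 473048 had 7.57, 4.02 and 3.99 RPKM in late stipes, 2.52% of its lowest other mean, which is the lowest share among these 15.

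Gene model 624234 encodes a hydrophobin. It had 4028, 3179.5 and 2684 RPKM in early stipes, 1816, 2155 and 592 RPKM in medium stipes, and 12.9, 13.6 and 14.4 RPKM in late stipes. The late stipe mean was 242-fold below that of early stipes. In caps it had 2168, 2932 and 2876 RPKM at the early stage, 1185, 1742 and 1420.2 RPKM at the medium stage, and 97.7, 118 and 114 RPKM at the late stage. Its level was therefore low in both late tissues, and the late caps were the lowest of the 5 other groups. It was 1 of 3 hydrophobins with all 5 other means of at least 10 RPKM. Of these 3, 2 had a late stipe mean of at most 1/5 of the early stipe mean. Over the 3, the median late cap mean was 4.13% of the early cap mean. The median late stipe mean was 80.6% of the lowest other mean.

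Gene model 172945, a cerato-platanin (a family of small secreted fungal proteins), had 2957 ± 438 RPKM in late caps and 80.0 ± 52.4 RPKM in late stipes. MiSSP13.2 (395403), one of the small secreted proteins named for their induction in mycorrhiza, had 346, 345 and 2213 RPKM in medium stipes and 192, 109.8 and 109 RPKM in late stipes. Medium stipe 3 was thus the highest stipe library for it, although this library was low for most members. Gene model 438072, an SSP with a carbonic anhydrase annotation (an enzyme that hydrates CO2), was nearly level elsewhere, with group means from 1031 to 1446 RPKM, and had 153, 163 and 174 RPKM in late stipes. Its medium stipes were 1456, 1449.6 and 188 RPKM, so that medium stipe 3 was close to the late stipes.

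Enzymes acting on the wall or on proteins completed this group. Gene model 320159, of glycoside hydrolase family GH17, which holds glucanases, had 166 ± 62.6 RPKM in early and 8.63 ± 2.98 RPKM in late stipes. Gene model 174636 of family GH16, also enzymes of β-glucans, was at 14.4% of its lowest other mean, and the aspartic protease 448070 was at 10.9%. As a whole, 12 of 126 gene models listed as SSPs with all 5 other means of at least 10 RPKM were members. The median of these 126 was 103% of the lowest other mean, compared with 29.1% for the ribosomal list and 122% for all gene models.

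**Figure D4:**
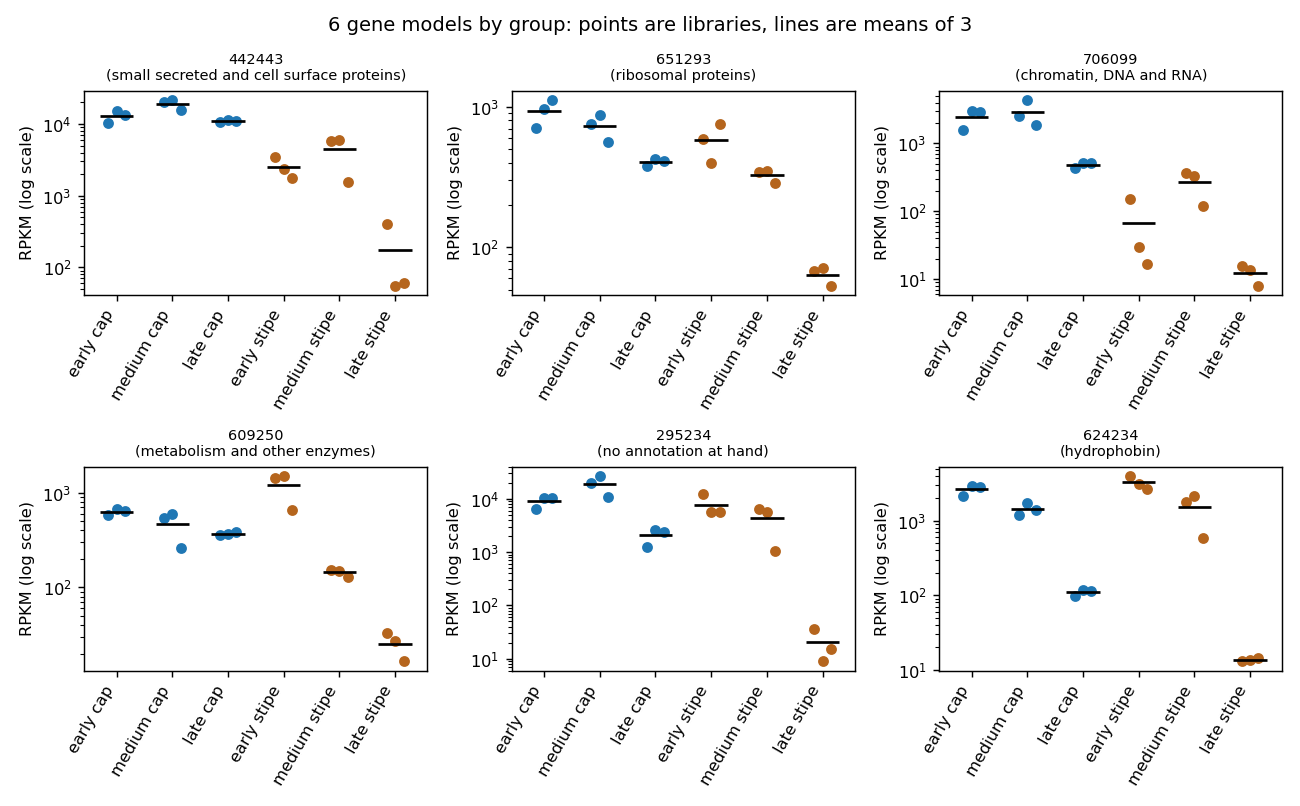
RPKM (log scale) by group for the member with the highest mean in each annotation group and for the hydrophobin 624234 (points are libraries, lines are means of 3, caps blue and stipes brown). The 3 late stipe points lie below all others in each panel, and the hydrophobin also drops in late caps, to 97.7 to 118 RPKM.

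Of the 6 members for chromatin, DNA and RNA, both histone H3 gene models, HTR16202 (251730) and HTR16206 (302849), followed nearly the same course. Histone H3 is a core protein of the nucleosome. HTR16202 had 446, 267 and 177 RPKM in early stipes, 109, 108 and 58.4 RPKM in medium stipes, and 25.2, 13.2 and 5.74 RPKM in late stipes. In caps its means were 424 ± 170, 346 ± 90.4 and 300.3 ± 8.10 RPKM from the early to the late stage. The stipe values of HTR16206 were 350.2 ± 151, 107 ± 44.5 and 15.7 ± 8.21 RPKM. LbRNRbeta (230488), the small subunit of ribonucleotide reductase, which makes the deoxynucleotides for DNA, had 201, 161 and 84.5 RPKM in early stipes, 66.1, 61.2 and 77.7 RPKM in medium stipes, and 13.6, 8.41 and 5.15 RPKM in late stipes. Histones did not share this as a list: 2 of 33 histone and nucleosome gene models with all 5 other means of at least 10 RPKM were members, and their median was 119% of the lowest other mean. None of 23 cyclins was a member.

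The other members of this group were a 3'-5' exonuclease (706099), a homeobox gene model (321078) and a Hyaluronan/mRNA-binding protein (642146). Homeobox proteins bind DNA and regulate transcription. The homeobox gene model was low throughout, with 54.6 ± 8.81 RPKM in early caps, 49.2 ± 15.7 RPKM in early stipes and 3.94 ± 1.13 RPKM in late stipes. The exonuclease had 1594, 3004 and 2880.4 RPKM in early caps, but 152, 29.4 and 16.9 RPKM in early stipes, 361, 335 and 121 RPKM in medium stipes and 15.4, 13.4 and 7.997 RPKM in late stipes. Early stipe 3 and late stipe 1 were therefore nearly alike for it, and its place among the members rests on the early stipe mean.

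The 9 metabolic and other enzymes were spread over several pathways. The protein-S-isoprenylcysteine O-methyltransferase 609250, which in yeast methylates prenylated proteins, had 1426, 1499 and 649.5 RPKM in early stipes, 154, 151 and 129.8 RPKM in medium stipes, and 32.7, 27.2 and 16.6 RPKM in late stipes. This was a stepwise decrease without overlap between the stages. Gene model 640838 was annotated with L-aminoadipate-semialdehyde dehydrogenase activity, which belongs to fungal lysine synthesis, and its own role was not tested. It had 205 ± 41.5 RPKM in early and 20.03 ± 2.57 RPKM in late stipes. A pair had activities of ergosterol synthesis among their annotations, squalene monooxygenase for 190855 and C-4 methylsterol oxidase for ERG25p-2 (182669). Both also carried other terms, among them carotenoid synthesis for 190855 and a cyclic-nucleotide phosphodiesterase for ERG25p-2, and their pathway was not tested. Gene model 190855 had 77.6, 58.7 and 29.8 RPKM in early stipes and 4.46, 3.12 and 2.88 RPKM in late stipes. ERG25p-2 had 153, 111 and 63.8 RPKM in early stipes and 11.8, 7.85 and 6.91 RPKM in late stipes. The remaining enzymes were an aldo/keto reductase (701139), a thioesterase (573693), a cyclopropane-fatty-acyl-phospholipid synthase (295662), an acid phosphatase (330257) and an ankyrin-repeat NAD+ ADP-ribosyltransferase (643823), at 10.3% to 17.6% of their lowest other means.

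The member with the lowest share of all, 295234, had no annotation. It had 12063, 5658 and 5681 RPKM in early stipes, 6408, 5766 and 1041 RPKM in medium stipes, and 36.7, 8.92 and 15.1 RPKM in late stipes, which is 0.964% of its lowest other mean. In caps it was highest at the medium stage, with 19609.5, 26861 and 10732 RPKM, and lowest at the late stage, with 1249, 2629 and 2430.0 RPKM. It was one of the 8 most abundant members, and its late stipe mean was 385-fold below that of early stipes. The gene model 654325, also without annotation, went from 3515 ± 1749 RPKM in early to 58.0 ± 23.1 RPKM in late stipes. For 637859 the late stipes had 53.3, 12.7 and 6.34 RPKM against a lowest other mean of 1086 RPKM, and for 603333 they had 20.5, 2.01 and 3.88 RPKM against 277 RPKM. The fewest reads in a late stipe library were those of 634924, with 4, 6 and 10 reads in late stipes and 136 reads or more in each of the others. The SSP 600246 had 7, 8 and 7 reads in late stipes and 24 in medium stipe 3. The folds of 634924 and 600246 thus rest on few reads. By contrast, 293525 stayed at 297, 282 and 284 RPKM in late stipes, 11.4% of its lowest other mean.

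The transcripts of the members were short. Their median length was 613 bases, compared with 1234.5 bases for the 7626 gene models with all 5 other means of at least 10 RPKM. Without the ribosomal proteins it was 770 bases. Length also moved with the late stipe in general: the mean transcript length weighted by reads was 1726 to 1858 bases in late stipes and 1309 to 1746 bases in the other libraries. In deciles of gene models by transcript length, the median log2 ratio of late to early stipe RPKM lay between -0.18 and 0.11. When each group mean was divided by the median of its length decile, a choice made after seeing the data, 64 gene models met the rule and 60 of them were members. With medium stipe 3 left out, 80 gene models met the rule, and 66 of them were members.

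Comparisons without a late stipe library were tested to find whether the members differed between tissues and stages elsewhere. A gene model was called when edgeR's quasi-likelihood test gave a Benjamini-Hochberg adjusted p under 0.05 over the 16485 gene models tested and the log2 fold change exceeded 1 in size. All 69 members passed the filter on low counts. In medium caps against medium stipes, 53 members were called higher in caps and none lower, which is 76.8% of the members, whereas 6.47% of all gene models were called higher and 5.05% lower. The median log2 fold change was 1.51 for the members and -0.01 for all gene models. All 18 ribosomal members were called, with log2 fold changes of 1.17 to 2.196, together with 10 of 15 small secreted and cell surface proteins, 4 of 6 for chromatin, DNA and RNA, 6 of 9 enzymes and 15 of 21 without annotation.

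Among the 53, the exonuclease 706099 had the largest difference between medium caps and stipes, with a log2 fold change of 3.44 ± 0.68 (SE, n = 3 per group, edgeR adjusted p = 0.00222). It was followed by the SSP 295120, with 3192, 2122 and 1152 RPKM in medium caps and 330.3, 326 and 222 RPKM in medium stipes, at 2.93 ± 0.56 (adjusted p = 0.00192), and by the SSP 294590 at 2.72 ± 0.58 (adjusted p = 0.00352). In 61 of the 69 members every medium cap library was above every medium stipe library. How many of all gene models separate in this way was not counted, so this number has no background. With the 6 libraries of the 2 groups alone, 17 members were called, 8 of them ribosomal, against 2.98% of all gene models. This changes the filter, the scaling and the estimate of the spread, which in the main test was shared by all 18 libraries. With RLE scaling or with either of the other filters, on all 18 libraries, 53 members were called. Without medium stipe 3 it was 48, and without medium cap 2 it was 37. Of 99 gene models with a ribosomal annotation tested, 70 were higher in medium caps, but 14 with the 6 libraries alone, and 1 was lower, the gene model 645304 with the additional transporter annotation.

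In early caps against early stipes, 12 members were called higher in caps and none lower, compared with 2.18% of all gene models called higher and 2.98% lower. They were 6 SSPs, 5 gene models without annotation and the exonuclease 706099. All 12 were also among the 53 called at the medium stage. The exonuclease was higher in caps by a log2 fold change of 5.13 ± 0.73 (edgeR adjusted p = 0.00039), the SSP 294590 by 3.63 ± 0.60 (adjusted p = 0.00131) and 295328, without annotation, by 2.86 ± 0.71 (adjusted p = 0.0176). Gene model 294590 had 3302, 5328 and 3431 RPKM in early caps and 506, 211 and 186 RPKM in early stipes, with no overlap. No ribosomal member was called, although all 18 had a positive log2 fold change, with a median of 0.68. The count was 4 without early cap 2, 6 without early stipe 2 and 5 without early stipe 3, and in each of these cases 295328 was no longer called (adjusted p between 0.000789 and 0.0842 over all alternatives). All gene models were called in 2.68%, 3.44% and 4.04% of cases with these libraries left out, against 5.16% in the main test. With DESeq2, with TMM scaling without the 50 most abundant gene models, or without early stipe 3, 1 member was called lower in caps.

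**Figure D5:**
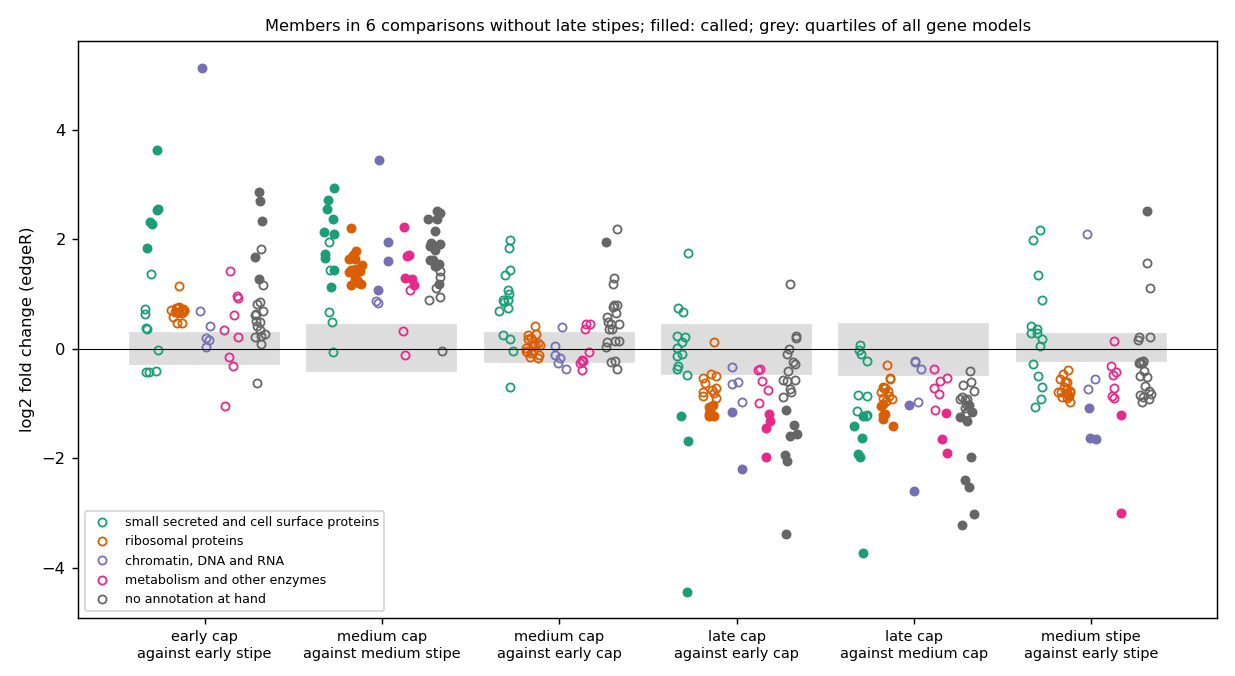
Log2 fold changes of the 69 members in the 6 comparisons without late stipes (points are gene models, colored by annotation group, filled where called, the grey band spans the quartiles of all gene models tested). In medium caps against medium stipes 53 points are filled, all above 0, and in late caps against medium caps 26 are filled, all below 0.

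Late caps had lower levels of part of the members than early or medium caps. That late caps stayed far above late stipes was set by the rule that chose the members, so it is not a result of these comparisons. Against early caps 23 members were called lower in late caps and none higher, compared with 6.12% of all gene models called lower and 9.27% higher. Against medium caps 26 were called lower and none higher, compared with 5.81% of all called lower and 9.17% higher. With DESeq2 or with the libraries of the 2 groups alone, 2 members were called higher than in early caps, and 1 was without early cap 2. These comparisons share the late caps, and 20 members were called in both of them. The hydrophobin 624234 fell by the most, with log2 fold changes of -4.44 ± 0.40 (edgeR adjusted p = 1.03e-06) against early caps and -3.73 ± 0.39 (adjusted p = 1.03e-05) against medium caps. The unannotated 654325, with 15695, 20146 and 21637 RPKM in early caps and 1654, 1681 and 1572 RPKM in late caps, had -3.39 ± 0.53 (adjusted p = 0.000165) and -3.02 ± 0.52 (adjusted p = 0.000436). The exonuclease 706099 fell by 2.21 ± 0.64 on the log2 scale against early caps (adjusted p = 0.0141), and 295234 by 3.22 ± 0.67 against medium caps (adjusted p = 0.00176).

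Ribosomal members were called lower in late caps in 7 cases against early caps and in 6 against medium caps, with log2 fold changes between -1.41 and -1.01. They included L37ae, L29/L36, S26e, L37e, L24e-related and L34e in both. Of the 99 gene models with a ribosomal annotation tested, 11 were called lower than in early caps and 15 lower than in medium caps. In each comparison 2 of the 99 were called higher. Of the enzymes, the aldo/keto reductase 701139 (-1.98 ± 0.38, edgeR adjusted p = 0.000837), the cyclopropane synthase 295662 (-1.45 ± 0.32, adjusted p = 0.00279), the dehydrogenase 640838 (-1.32 ± 0.48, adjusted p = 0.0422) and the acid phosphatase 330257 (-1.20 ± 0.30, adjusted p = 0.00588) had lower levels in late caps than at the early stage. Without late cap 1 the counts over all members were 15 against early and 17 against medium caps, and without medium cap 2 the latter was 12. The shares of all gene models called were then 13.8%, 12.8% and 11.3%. In the main test they were 15.4% against early and 15% against medium caps. The call of the exonuclease against early caps was lost without late cap 1 (adjusted p = 0.0540).

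Between the early and the medium stage few members differed. In caps the unannotated 651648 was called higher at the medium stage (log2 fold change 1.95 ± 0.50, edgeR adjusted p = 0.0449), and none was lower, compared with 1.08% of all gene models called higher and 0.952% lower. It had 67.2, 152 and 89.4 RPKM in early caps and 348, 505 and 192 RPKM in medium caps. It was not called without early cap 1, early cap 3, medium cap 1 or medium cap 2, when no member was called, and 2 members were called without medium cap 3. In the cases with none called, the shares of all gene models called were 0.897%, 1.09%, 0.91% and 1.01%. Without medium cap 3 the share was 7.69%, against 2.03% in the main test. Gene model 651648 was also not called with the libraries of the 2 groups alone. In stipes 5 members were lower and 1 was higher at the medium stage, against 1.6% and 0.88% of all gene models. Those lower were the methyltransferase 609250 (-2.997 ± 0.35, adjusted p = 0.000204), HTR16206 (-1.66 ± 0.42, adjusted p = 0.0327), HTR16202 (-1.64 ± 0.44, adjusted p = 0.0421), the cyclopropane synthase 295662 (-1.22 ± 0.32, adjusted p = 0.0394) and LbRNRbeta (-1.08 ± 0.30, adjusted p = 0.0486). The call of HTR16206 was lost without early stipe 1 or 2 or medium stipe 1 or 2, and that of HTR16202 without any one of these or medium stipe 3, with adjusted p of up to 0.153 and 0.160 over the alternatives.

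The unannotated 627440 was the member that was higher in medium stipes, with 379, 358 and 338 RPKM against 87.9, 67.0 and 39.4 RPKM in early stipes (2.51 ± 0.61, edgeR adjusted p = 0.0278). It was not called without any one of early stipes 1 to 3 or medium stipes 1 and 2 (adjusted p between 0.000278 and 0.1002 over all alternatives). Without medium stipe 1 or 2 the number called in stipes was 1, the methyltransferase 609250, against 1.46% and 1.34% of all gene models. It was 3 without early stipe 1 (2 higher and 1 lower), 10 without medium stipe 3 (5 higher and 5 lower) and 2 with the 6 libraries alone (1 higher and 1 lower). The shares of all gene models called in these 3 cases were 1.56%, 5.72% and 0.586%, against 2.48% in the main test. Without early stipe 2 or early stipe 3 none was higher, so that the balance of directions moved with the libraries used. All 18 ribosomal members had a negative log2 fold change from early to medium stipes, with a median of -0.79, and none was called. Whether the change from the early to the medium stage differed between caps and stipes was tested by the interaction. No member was called by edgeR, compared with 0.0182% of all gene models. An unadjusted edgeR p under 0.05 was seen in 23 members. The share of all gene models under this looser bound was not counted, so the 23 cannot be set against the 0.0182%. DESeq2 was not run on the interaction.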

How the data were processed

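RNA of *L. bicolor* S238N caps and stipes was extracted by a CTAB protocol and sequenced (TruSeq Stranded mRNA, HiSeq2000, paired reads). Trimmed reads were mapped by the authors to v2 reference transcripts in CLC Genomics Workbench, with several hits allowed for a read, and a raw read count per gene model was deposited. The deposited RPKM values were made by the authors from these counts, transcript length and library size, and 100% of the implied lengths agreed within 1% between libraries. Whether unique or total reads were counted, and whether strand was used, is not given in the sources used here. Depth was 38976106 to 90888294 counted reads per library.

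Members were chosen on RPKM. Counts were tested in R 4.3.3 with edgeR 4.0.16 (filterByExpr, TMM, quasi-likelihood test, all 18 libraries, group means), and figures were drawn with matplotlib 3.10.9. Alternatives were DESeq2 1.42.0, RLE scaling, TMM without the 50 most abundant gene models, other filters, the replicate number as a block, the libraries of the 2 groups alone, no minimum fold, nearly alike libraries combined, and each library left out. The scripts were tested on simulated data. Replicates are biological per the labels, whereas a figure legend of the paper counts fewer biological replicates than the 18 libraries. The SD, SE and p-values treat all 18 libraries as independent. The closest pairs, medium stipes 1 and 2 and late caps 2 and 3, differed by more than counting noise (chi-square per degree of freedom 8.38 and 14.4, against 47.3 to 1047 for the other pairs), which repeat libraries of one RNA can do as well. They were kept apart, and values with each pair combined are given below as an alternative. Whether each pair came from separate basidiocarps was not tested.

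The members and lists were chosen with earlier results of these data known. Named were the 8 most abundant members, the 8 with the lowest late stipe share, the 30 most abundant with an annotation, the 3 largest called rises and falls per comparison, and gene models nearest the bounds. Further annotated members, and those called in small numbers, were named after their values were seen. The lists also covered septins, cytochrome P450, kinases, lipases, transporters, aquaporins, GH18, GH5, AA1, AA3, AA5, CE4, expansins, ABC transporters and glycosyltransferases, none of which held a member. The peptidases held 1, the transcription factors 1, the FAD or NAD oxidoreductases 3, and GH16 1. Of the members, 24 matched a RefSeq gene (assembly V1.0), which gave 4 symbols. Neighbouring genes could not be determined from it. Sequences were not used here. Free-living mycelium and ectomycorrhiza were not analysed here.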

Additional observations from a re-analysis of the deposited data

How the results depend on the processing

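The number of members was 69. It was 114 with a fold bound of 4 and 45 with a bound of 6, and 53 to 91 when single libraries were left out. TMM-scaled RPKM gave 70, the median 77, a floor of 5 RPKM 72, a floor of 20 RPKM 66 and averaged alike libraries 64. Members at most 1/5 of the lowest other mean in each late stipe library were 40, and those found again in a held-out library 41 to 60.

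With DESeq2, 2 members were called in medium against early caps and 10 in medium against early stipes, of which 4 were higher and 6 lower. Among all gene models, DESeq2 called 3.03% and 3.62% in either direction, against 2.03% and 2.48% in the main test. With the 6 libraries of the groups compared, 17 were called in medium caps against medium stipes and 2 in medium against early stipes (2.98% and 0.586% of all gene models). With medium stipes 1 and 2 and late caps 2 and 3 summed, none was called in medium against early caps (0) and 1 in medium against early stipes (1.61% and 1.02% of all gene models). In late against early caps 18 were called (13.8%), in late against medium caps 19 (13.8%). Medium caps against medium stipes gave 48 (10.2%) and early caps against early stipes 10 (4.69%). The main test called 23, 26, 53 and 12 in these comparisons. When single libraries were left out, the members called ranged from 4 to 11 in early caps against early stipes, 37 to 53 in medium caps against medium stipes, 0 to 2 in medium against early caps, 15 to 25 in late against early caps, 12 to 36 in late against medium caps and 1 to 10 in medium against early stipes. The share of all gene models called moved as well. In late against medium caps it was 11.3% without medium cap 2 (12 members) and 19.6% without medium cap 3 (36 members). In medium against early stipes it was 1.34% without medium stipe 2 (1 member) and 5.72% without medium stipe 3 (10 members).

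Of 255 values of the named changes under alternatives, 223 kept direction and call, 32 kept direction but lost the call and 0 reversed. The replicate number as a block gave 13, 55, 1, 22, 25 and 5 calls in the order of the comparisons above, of which 12, 53, 0, 22, 24 and 4 were among those reported. The shares of all gene models called were 4.94%, 11%, 1.86%, 15.1%, 14.7% and 2.2% in the same order. The call of 651648 was thus lost and another member was called in its place. However, same-numbered libraries did not deviate together (correlations of -0.501 to 0.317), so that the number does not pair them. The causes of these differences were not tested.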
